A study of Danio rerio with 4 samples.

Results

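Neuronal and synaptic genes were followed as a group in whole zebrafish embryos at 6 and 3 days post fertilization (dpf). Members came from a list of 45 genes in 5 classes, namely early neuronal and axonal genes, synaptic vesicle and release genes, transmitter-type genes, glutamate receptors, and genes of mature neurons and calcium-binding proteins. A gene was taken where a probe carried its symbol or was described by its name or an older symbol. This matched 42 genes through 115 probes, out of 26636 genes on the array. Here and in all shares of all genes below, the accessions of 8258 probes without a gene name count as genes. The transcripts of dcx, nefla and sv2a were not matched, and vamp1 and cplx2 were read from the probes of vamp1a and cplx2b. The study set fish mutant for macrophage stimulating protein (Msp, gene mst1), a secreted growth factor, against wild type. There were 4 RNA pools: Msp mutant at 6 dpf, wild type at 6 dpf, Msp mutant at 3 dpf and wild type at 3 dpf. Every pool held untreated WIK-strain embryos raised in E3 medium at 28 °C, with RNA of 30 embryos per genotype and stage. The labels give neither the nature of the Msp mutation nor whether mutant embryos were homozygous.

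Young neurons express RNA-binding proteins of the Elav family, growth-cone proteins and microtubule regulators while their axons extend. As synapses form, they make SNARE proteins and vesicle proteins, which fuse transmitter-filled vesicles with the membrane, and the enzymes and transporters that set which transmitter a neuron releases. Glutamate receptors on the receiving side read the fast excitatory signal. In zebrafish larvae the period between the stages studied here covers the maturation of brain circuits used for swimming and prey capture.

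Each stage was hybridised on 2 two-colour arrays with the dyes swapped, and array 1 carried the mutant RNA in Cy5. An error written as ± is the SD between dye-swapped arrays (n = 2 arrays of 1 pool per genotype). It measures labelling and hybridisation only, because both arrays were taken to hold the same RNA pools. No test was possible between genotypes within a stage. Between dye-swapped arrays the log2 ratios of all genes correlated at 0.404 at 6 dpf and 0.412 at 3 dpf. The arrays of equal dye orientation at different stages correlated at 0.446 and 0.548. Transcript of the targeted gene itself, mst1, had a log2 ratio (mutant over wild type) of -1.12 ± 0.16 at 6 dpf and -0.65 ± 0.06 at 3 dpf. All 42 members passed the filter on dim probes. Of these, 41 were well above background on both arrays of every pool, the neuron markers elavl3, elavl4, snap25a, snap25b, stmn2a, stmn2b and syt1a among them. The exception was gria2a, which met this on both arrays in the mutant at 3 dpf and on 1 of 2 arrays in each other pool.

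Between 6 and 3 dpf, 6 members changed. The early neuronal and axonal transcripts tubb5, gap43 and stmn2b fell. The GABA-synthesis gene gad1b, the NMDA receptor subunit grin1b and the parvalbumin pvalb7 rose. A stage call required a limma adjusted p below 0.05 and an absolute log2 change of at least 1, with stage and genotype as terms over the 4 pools. In all 3 members of 42 rose (7.14%), against 4.93% of all 18877 genes tested, and 3 fell (7.14%), against 5.38% of all genes. Calls in either direction took in 10.3% of all genes, so the 6 called members stand close to this background. With the adjusted p alone, a setting chosen after seeing the data, 19 members were higher at 6 dpf (45.2%, against 31.3% of all genes). In that setting 11 were lower (26.2%, against 30.1%). Without normalization between arrays, 13 of 42 members turned the sign of their stage change. In that setting the median of all genes moved from 0.01 to -0.23. The share of all genes that turned sign was not counted, so the number says nothing particular about the members. In bulk RNA of whole embryos, fewer cells of a type and less RNA per cell cannot be told apart.

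**Figure D1:**
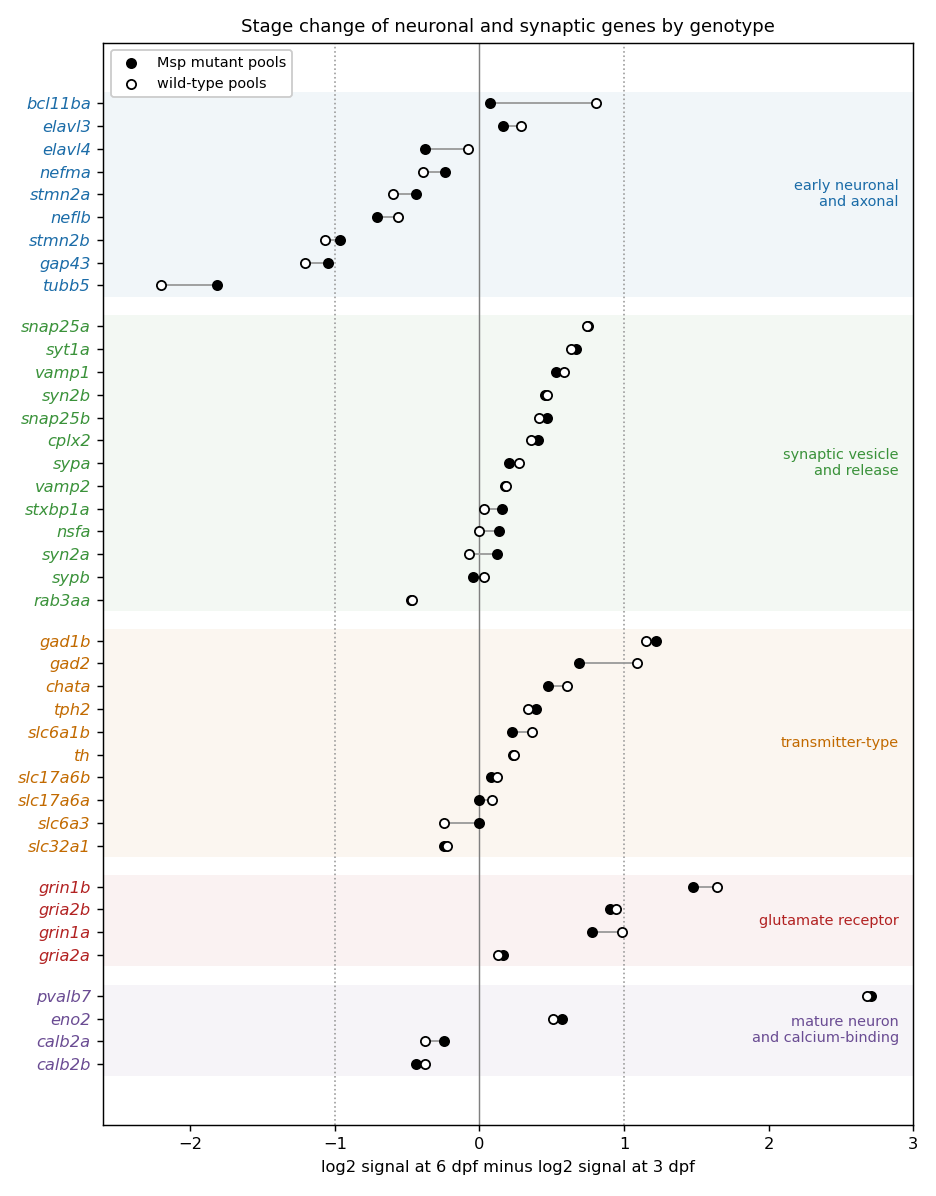
Log2 signal at 6 dpf minus log2 signal at 3 dpf (horizontal axis) for 40 members, grouped by class, with filled points for the Msp mutant pools and open points for the wild-type pools. Dotted lines mark a log2 change of 1 in either direction. Most early neuronal and axonal genes lie left of 0 and the glutamate receptors lie right of it in both genotypes.

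Among the 9 early neuronal and axonal members, the median stage change was -0.52 on the log2 scale, against 0.01 over all genes. It was -1.05 without normalization between arrays, where all genes had -0.23. Beta-tubulin tubb5, a building block of microtubules, had log2 signals of 13.25 in the mutant and 12.89 in the wild-type pool at 6 dpf. At 3 dpf its signals were 15.06 in the mutant and 15.10 in the wild-type pool. Both 6 dpf pools lay below both 3 dpf pools, and tubb5 fell by 2.01 on the log2 scale (SE 0.11, limma adjusted p = 6.71e-05), which is 4.02-fold. Such separation, also given below for other members, follows from a large stage change with small genotype differences. It adds no separate support. All 3 detected probes of tubb5 had changes between -2.12 and -1.52.

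The growth-cone protein gene gap43 had log2 signals of 11.42 in the mutant and 11.30 in the wild-type pool at 6 dpf, against 12.47 in the mutant and 12.51 in the wild-type pool at 3 dpf. The stages did not overlap. Gap43 transcript fell by 1.13 on the log2 scale (SE 0.08, limma adjusted p = 0.000141), and its 3 probes ranged between -1.45 and -1.13. The gene stmn2b encodes a stathmin that regulates microtubules in growing axons. Its log2 signals were 13.08 in the mutant and 12.90 in the wild-type pool at 6 dpf, against 14.04 in the mutant and 13.96 in the wild-type pool at 3 dpf. It fell by 1.02 (SE 0.07, limma adjusted p = 0.000162), just past the required size. Its change was -0.95 without 6 dpf array 2 and -0.99 without 3 dpf array 1 or with Agilent's processed signals, which end the call.

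The paralog stmn2a had a change of -0.52 and the neurofilament light gene neflb of -0.63 (limma adjusted p = 0.00235 and 0.00102), below the required size. All 6 detected probes of stmn2a lay between -0.70 and -0.49. The neurofilament medium gene nefma stood at -0.31, but 1 of its 3 other detected probes had the opposite sign at 0.39. The Elav genes had opposite signs, with elavl3 at 0.22 (limma adjusted p = 0.0437) and elavl4 at -0.23 (limma adjusted p = 0.0806). Of the other detected probes of elavl4, 1 of 2 had the opposite sign, at 0.11. The transcription factor gene bcl11ba had the highest value of the class at 0.44, with 0.07 in the mutant and 0.81 in wild type (limma adjusted p = 0.0635).

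**Figure D2:**
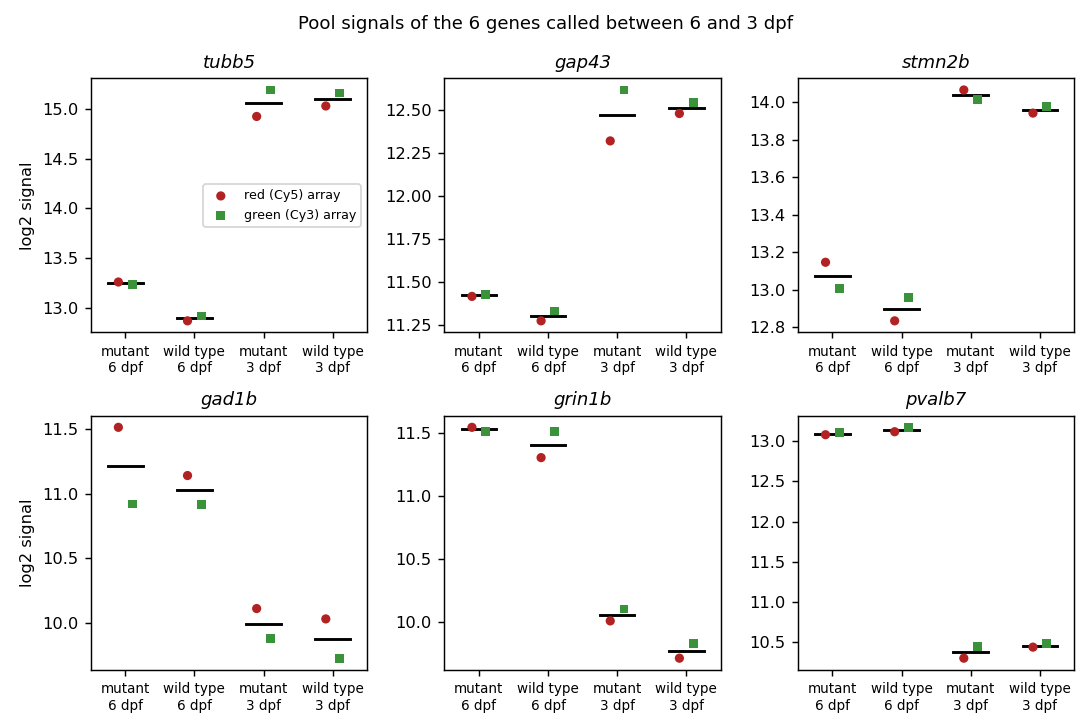
Log2 signal (vertical axis, not starting at 0) of the 6 members called between 6 and 3 dpf in the mutant and wild-type pools at 6 dpf and at 3 dpf. Red circles show the array on which the pool carried Cy5, green squares the array with Cy3, and black lines their mean. For each gene both 6 dpf pools lie on 1 side of both 3 dpf pools, which follows from the size of the called changes.

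The 13 synaptic vesicle and release members had a median stage change of 0.24, and 10 had the same sign in both genotypes. None was called, as every log2 change was below 1 in size. With the adjusted p alone, the setting chosen after seeing the data, 7 of the 13 were higher at 6 dpf, against 31.3% of all genes. In that setting 1 was lower, against 30.1% of all genes. The class median turned to -0.09 without normalization between arrays, where the median of all genes was -0.23, so that it lay 0.14 above all genes. Snap25a encodes a SNARE protein of the presynaptic membrane and had the largest change of the class. Its log2 signals were 13.15 in the mutant and 13.07 in the wild-type pool at 6 dpf, against 12.40 in the mutant and 12.33 in the wild-type pool at 3 dpf. The stages did not overlap, and the difference was 0.75 (SE 0.07, limma adjusted p = 0.000398).

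Its paralog snap25b stood at 0.44 (limma adjusted p = 0.00312), and the probes of both genes were all above 0. The calcium sensor of vesicle fusion, syt1a, stood at 0.65, and the vesicle SNARE gene vamp1 at 0.56. Complexin cplx2, which clamps the SNARE complex, stood at 0.38, and synapsin syn2b at 0.46. The membrane proteins of the vesicle differed, with synaptophysins sypa at 0.24 and sypb at -0.01. The SNARE-binding gene stxbp1a stood at 0.09 and the ATPase gene nsfa at 0.07, and neither passed the adjusted p. The lowest value belonged to the vesicle-bound GTPase gene rab3aa at -0.47 (limma adjusted p = 0.00232), which was measured by 1 probe. The values of syn2a (0.03), stxbp1a and sypb lay within the differences among their own probes or genotypes.

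The 10 transmitter-type members had a median stage change of 0.27, which turned to -0.06 without normalization between arrays, 0.17 above the median of all genes in that setting. Gad1b, an enzyme that makes the inhibitory transmitter GABA, was the called member. Its log2 signals were 11.22 in the mutant and 11.03 in the wild-type pool at 6 dpf, against 9.99 in the mutant and 9.88 in the wild-type pool at 3 dpf. Its transcript rose by 1.19 (SE 0.07, limma adjusted p = 9.51e-05), or 2.27-fold. All 5 probes were higher at 6 dpf, between 0.49 and 1.19, and the call was lost with the mean of the probes (0.92) and without normalization between arrays (0.70).

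The other GABA-synthesis gene, gad2, stood at 0.89, with 0.69 in the mutant and 1.09 in wild type (limma adjusted p = 0.00106). Its 9 probes all lay above 0, between 0.10 and 0.92. The vesicular GABA and glycine transporter gene slc32a1 had the opposite sign at -0.23, with all 4 probes below 0. The GABA uptake transporter gene slc6a1b stood at 0.29. Choline acetyltransferase, chata, stood at 0.54, and the serotonin-synthesis gene tph2 at 0.36. For dopamine, the synthesis gene th stood at 0.24 and the uptake transporter gene slc6a3 at -0.13, with the other probe of slc6a3 at 0.21. The vesicular glutamate transporter genes slc17a6a and slc17a6b stood at 0.04 and 0.10, and neither passed the adjusted p (limma adjusted p = 0.654 and 0.262).

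All 4 glutamate receptor members were higher at 6 dpf in both genotypes, and the class had the highest median at 0.90. This median was 0.42 without normalization between arrays, 0.65 above that of all genes. Grin1b, an obligatory subunit of NMDA receptors, had log2 signals of 11.53 in the mutant and 11.41 in the wild-type pool at 6 dpf. At 3 dpf it had 10.05 in the mutant and 9.77 in the wild-type pool, with no overlap between stages. Grin1b rose by 1.56 (SE 0.08, limma adjusted p = 6.13e-05), or 2.95-fold, and its 6 probes ranged between 0.71 and 1.56. The paralog grin1a stood at 0.88 and the AMPA receptor subunit gene gria2b at 0.93 (limma adjusted p = 0.000382 and 0.000193), both just short of the required size. The paralog gria2a, the dimly measured member, stood at 0.14. The class holds 4 genes only. Other AMPA and NMDA receptor subunits, read among the further receptors and channels, lay between 0.05 (gria4b) and 0.83 (grin2ab). None of them was called.

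The 6 genes of mature neurons and calcium-binding proteins had a median stage change of -0.21, although they held the largest rise. The single values given below lie on both sides of 0, so the sign of the median does not describe the class as a whole. The median was -0.69 without normalization between arrays, which is -0.46 relative to all genes. Pvalb7, a calcium-buffering parvalbumin known as a marker of Purkinje cells of the zebrafish cerebellum, had log2 signals of 13.09 in the mutant and 13.14 in the wild-type pool at 6 dpf. At 3 dpf its signals were 10.38 in the mutant and 10.46 in the wild-type pool. It rose by 2.69 (SE 0.07, limma adjusted p = 1.61e-05), or 6.47-fold, and its 3 probes ranged between 2.26 and 2.69. The neuronal glycolysis gene eno2 stood at 0.54 (limma adjusted p = 0.00142). The calretinin genes calb2a and calb2b stood at -0.31 and -0.41 (limma adjusted p = 0.0145 and 0.0042), below the required size.

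Stage changes had the same sign in both genotypes for 37 of 42 members (88.1%), against 88.7% of all genes. Among the exceptions were nsfa, syn2a, sypb and slc17a6a, whose changes were small in at least 1 genotype. In paralog pairs, both members of snap25, stmn2, syn2, slc17a6, gria2, grin1 and calb2 shared the sign of the stage change, and those of syp did not. Signs within the syn2, slc17a6, gria2 and syp pairs are uncertain. Of these genes, syn2a (0.03), slc17a6a (0.04), gria2a (0.14) and sypb (-0.01), among others, did not pass the adjusted p. Whether a probe of one paralog also captures the other was not tested.

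**Figure D3:**
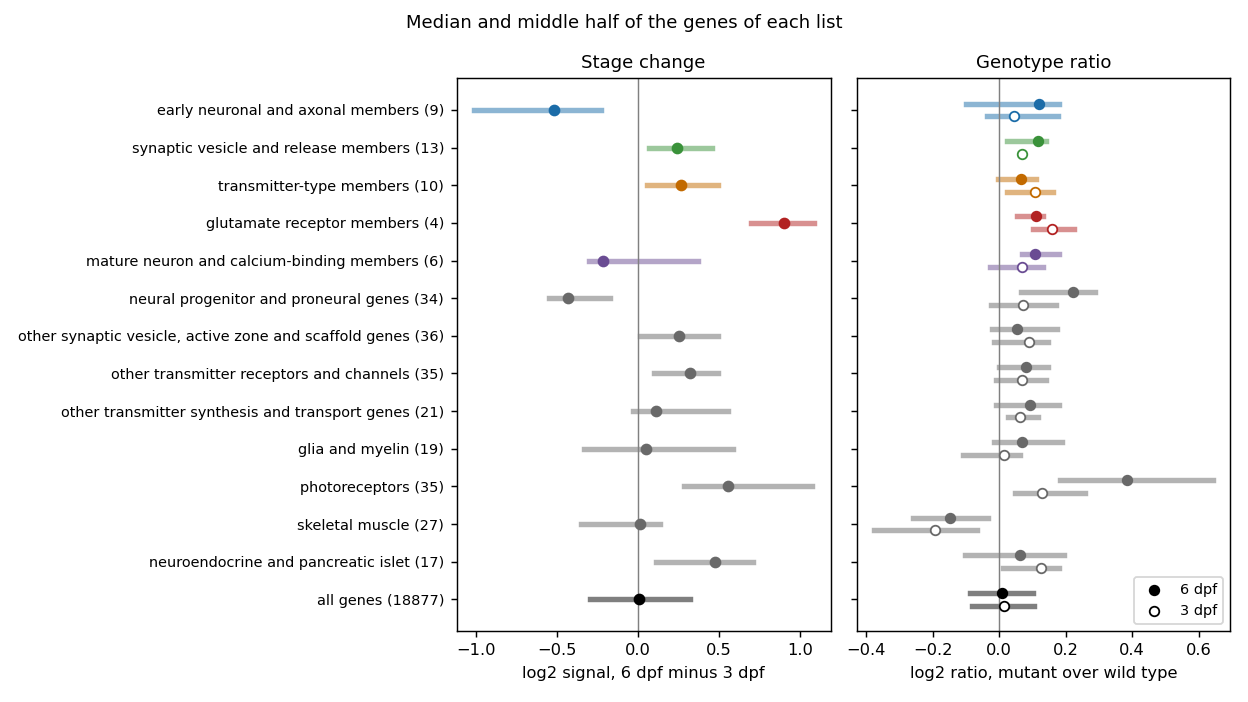
Median (points) and middle part of the genes (bars, 25th to 75th percentile) of the member classes, further gene lists and all genes, with the number of genes in brackets. The left panel gives the log2 change of 6 over 3 dpf, the right panel the log2 ratio of mutant over wild type at 6 dpf (filled) and 3 dpf (open). In the left panel the medians of early neuronal members, mature neuron members and progenitor genes lie below 0 and that of glutamate receptors furthest above it. In the right panel photoreceptors lie highest at 6 dpf, and skeletal muscle lies below 0 at both stages.

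Other neural genes were read from separate lists. Of all genes tested, 4.93% rose and 5.38% fell, and calls of 1 or 2 genes in a list are too few to be set apart from these shares. Of 34 neural progenitor and proneural genes, 4 fell and 0 rose, with a median of -0.43. The beta-tubulin tubb2b and the radial glia lipid-binding protein gene fabp7a changed most: tubb2b fell by 1.82 and fabp7a fell by 1.82. Of 36 further vesicle, active zone and scaffold genes, 2 rose and 0 fell (median 0.25). These were the synaptotagmin gene syt5a (1.61) and the neurexin gene nrxn3a (1.01). Of 35 further receptors and channels, the GABA receptor subunit gabrb2a rose (1.12) and the glycine receptor subunit glra4a fell by 1.08, with a median of 0.32. Of 21 further genes of transmitter synthesis and transport, 2 rose and 1 fell (median 0.11). The GABA-degrading enzyme gene abat (1.47) and glutamine synthetase glula (1.204) rose, and the GABA transporter slc6a11a fell by 1.03. The glia and myelin list below also holds glula and counts it among its rises.

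Markers of other cell types were read over the same interval, against the same shares of all genes (4.93% rose and 5.38% fell). Of 19 glia and myelin genes, 3 rose and 1 fell, with the myelin proteins plp1b (2.43) and mpz (2.198) rising most and fabp7a, which the progenitor list also holds, falling. Of 35 genes on the photoreceptor list, 9 rose and 1 fell, with pde6ga (3.71) and the opsin opn1lw1 (3.70) rising most. The gene that fell, by 1.76, was rpe65a, which belongs to the retinal pigment epithelium rather than to photoreceptors. Of 27 skeletal muscle genes, 0 rose and 2 fell. The actin gene acta1b fell by 2.79 and the troponin gene tnnt3a fell by 2.17. Of 17 neuroendocrine and islet genes, which share vesicle proteins with neurons, 3 rose and 0 fell, with insulin (ins, 1.32) and the granin gene scg2b (1.30) highest. The part of these cell types in the members' changes was not tested.

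Differences between mutant and wild type were small in the neuronal and synaptic genes. No member of 42 was called by limma over the 2 stage values (adjusted p between 0.101 and 0.996), against 1.06% of all genes. Among all genes 0.45% were higher and 0.609% lower in the mutant. At an unadjusted p below 0.05 there were 5 members (11.9%), against 13.6% of all genes. These were elavl3, slc32a1, syt1a, gria2b and grin1b. No member passed the size rule at either stage, which asked for a mean log2 ratio of at least 1 in size and at least 0.5 on each array, against 0.519% of all genes at 6 dpf and 0.323% at 3 dpf. Mean ratios of the members ranged between -0.37 and 0.35 at 6 dpf and between -0.35 and 0.61 at 3 dpf.

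The members' ratios lay mostly, but slightly, above 0. Their median was 0.09 at 6 dpf and 0.07 at 3 dpf, against 0.01 for all genes at both stages. The mean ratio was above 0 for 32 members at 6 dpf (76.2%, against 52.2% of all genes) and for 34 at 3 dpf (81.0%, against 54.4%). It was above 0 at both stages for 26 (61.9%, against 33.5%). On all 4 arrays 13 members lay above 0 (31.0%, against 13.6%), and 1 lay below, slc32a1 (2.38%, against 11.7%). The first of these counts was 1 with median centring in place of loess and 6 with the second brightest probe. The share of all genes was not counted in these settings, so neither count can be set against 13.6%. The dye term, which is the deviation of either array from the mean of the swap, was larger than the mean ratio in size for 20 members at 6 dpf and 17 at 3 dpf, against 44.4% and 42% of all genes. Of the skeletal muscle list, 5 of 27 genes lay above 0 at 6 dpf and 6 at 3 dpf (medians -0.15 and -0.19), and of the photoreceptor list 32 of 35 and 27 (medians 0.38 and 0.13). In these lists limma called the photoreceptor genes gngt1, pde6ga and prph2b higher and the muscle genes myl1 and tnni2a.4 lower in the mutant. The part of these tissues in the members' small shift was not tested.

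No gene of the other neural lists was called for genotype by limma. The median ratio of the neural progenitor and proneural genes was 0.22 at 6 dpf and 0.07 at 3 dpf. It was 0.05 and 0.09 for further vesicle, active zone and scaffold genes, 0.08 and 0.07 for further receptors and channels, and 0.09 and 0.06 for further genes of transmitter synthesis and transport. Glia and myelin genes had 0.07 at 6 dpf and 0.01 at 3 dpf, and neuroendocrine and islet genes had 0.06 and 0.12. The median of the progenitor genes at 6 dpf lay above that of the members (0.22 against 0.09), with 30 of 34 genes above 0. The other medians lie close to those of the members, except at 3 dpf in the glia and myelin and the neuroendocrine and islet lists. At 3 dpf the glia and myelin median equalled that of all genes (0.01). The neuroendocrine and islet median was 0.12 at that stage, against 0.07 for the members.

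**Figure D4:**
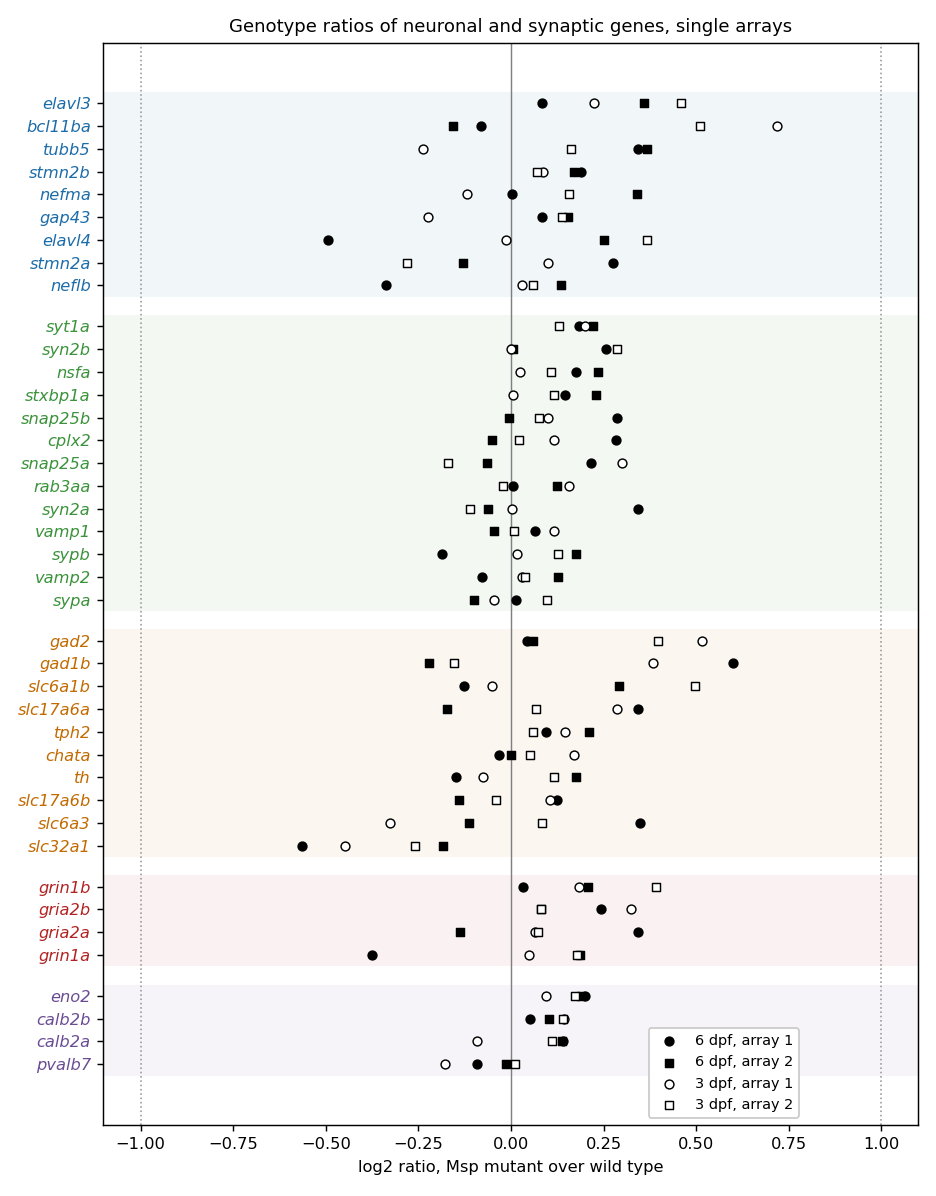
Log2 ratio of Msp mutant over wild type on single arrays for 40 members, grouped by class as in the plot of stage changes, with filled symbols for 6 dpf, open symbols for 3 dpf, circles for array 1 and squares for array 2. Dotted lines mark a log2 ratio of 1 in either direction. No point reaches them, and slc32a1 is the member with all 4 points left of 0.

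In the early neuronal class, elavl3 had ratios of 0.08 and 0.36 on arrays 1 and 2 at 6 dpf and of 0.22 and 0.46 at 3 dpf. It was above 0 on every array, yet not called (limma 0.28, SE 0.08, adjusted p = 0.195), and it has 1 probe. Tubb5 had the highest mean of the class at 6 dpf (0.35 ± 0.02), but -0.24 and 0.16 on the arrays at 3 dpf. The 2 other detected probes of tubb5 had mean ratios of 0.16 and -0.03 at 6 dpf and of -0.22 and -0.36 at 3 dpf. The lowest mean at 6 dpf was that of elavl4 (-0.12 ± 0.53), whose arrays had opposite signs. Bcl11ba, a zinc-finger transcription factor gene, had the highest ratio of all members at 3 dpf. It had ratios of -0.08 and -0.16 at 6 dpf, with 0.72 and 0.51 at 3 dpf. Its other probe had ratios of 0.12 and -0.09 at 6 dpf and 0.51 and 0.40 at 3 dpf. The lowest of the class at 3 dpf was stmn2a (-0.09 ± 0.27).

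Synaptic vesicle genes stayed close to 0. At 6 dpf their means ranged between nsfa (0.21 ± 0.04) and sypa (-0.04 ± 0.08), and at 3 dpf between syt1a (0.16 ± 0.05) and syn2a (-0.05 ± 0.08). Syt1a had ratios of 0.19 and 0.22 at 6 dpf and of 0.20 and 0.13 at 3 dpf, the most even pattern of the members at an unadjusted p below 0.05. It was not called (limma adjusted p = 0.350).

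Transmitter-type genes held the lowest member. Slc32a1 had ratios of -0.56 and -0.18 on arrays 1 and 2 at 6 dpf and of -0.45 and -0.26 at 3 dpf. The limma estimate was -0.36 (SE 0.07, adjusted p = 0.101). It would be called without 3 dpf array 2 (-0.41, limma adjusted p = 0.0272). Its probe of nearly equal brightness had mean ratios of 0.07 at 6 dpf and 0.08 at 3 dpf, and the 2 dim probes had -0.14 and -0.07 at 6 dpf, with -0.04 and -0.17 at 3 dpf. None of these 3 probes came near the ratio of the brightest one.

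Gad2 had ratios of 0.04 and 0.06 at 6 dpf and of 0.52 and 0.40 at 3 dpf. Across its 9 probes the mean ratios ranged between -0.12 and 0.19 at 6 dpf and between -0.03 and 0.46 at 3 dpf. Gad1b had the highest mean of the class at 6 dpf (0.19 ± 0.58), with ratios of 0.60 and -0.22 on the 2 dye orientations, and 0.38 and -0.15 at 3 dpf. Its second brightest probe had 1.31 and 0.34 at 6 dpf and 1.22 and 0.53 at 3 dpf, whereas the mean ratios of its other 3 probes lay between 0.19 and 0.27 at 6 dpf and between -0.05 and 0.10 at 3 dpf. Taken alone, this probe would be called (limma 0.85, adjusted p = 0.0131).

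**Figure D5:**
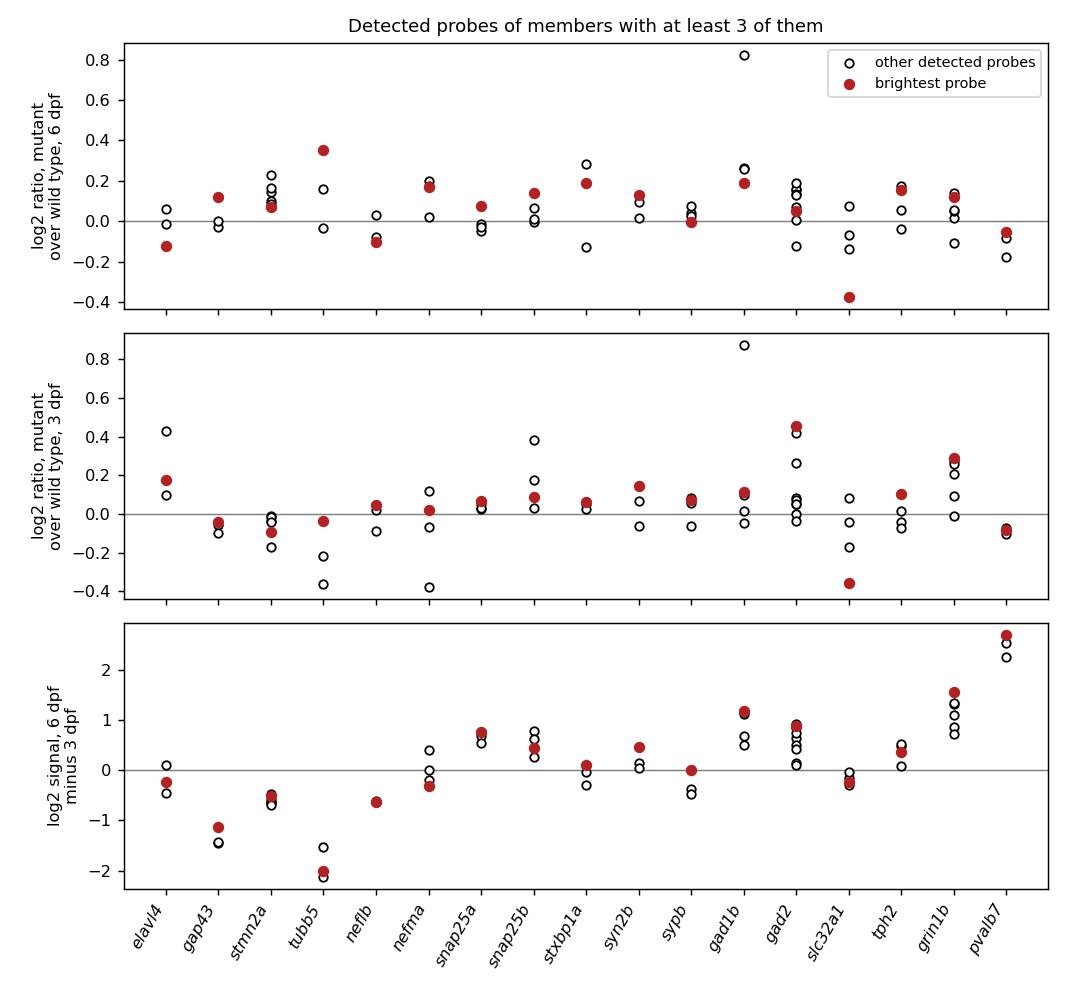
Values of the single detected probes of the members plotted that have at least 3 of them, with the log2 ratio of mutant over wild type at 6 dpf (top) and 3 dpf (middle) and the log2 change of 6 over 3 dpf (bottom). Filled points mark the brightest probe, open points the others. One probe of gad1b stands apart upward in the upper panels, and the brightest probe of slc32a1 downward in the top panel. In the middle panel that slc32a1 probe (-0.35) lies level with 1 probe of nefma (-0.38) and 1 of tubb5 (-0.36). The probes of each gene called for stage share 1 sign in the lowest panel.

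Of the glutamate receptor genes, gria2b had the highest mean at 6 dpf (0.16 ± 0.12) and grin1a the lowest (-0.10 ± 0.40). At 3 dpf grin1b was highest (0.29 ± 0.15) and gria2a lowest (0.07 ± 0.01). Grin1b had ratios of 0.03 and 0.21 at 6 dpf and of 0.18 and 0.39 at 3 dpf, and 4 of its 5 other probes had the same sign at either stage. It was not called (limma 0.20, adjusted p = 0.349). Among the mature neuron genes, eno2 had a mean of 0.19 ± 0.01 at 6 dpf, and calb2b was highest at 3 dpf (0.14 ± 0.00). Pvalb7 was lowest at both stages (-0.05 ± 0.06 and -0.08 ± 0.13), so the member with the largest stage change had nearly equal signals in both genotypes. Over all members, 50 of 69 other detected probes shared the sign of the brightest probe at 6 dpf and 55 at 3 dpf, against 62 for the stage change.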

How the data were processed

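RNA of whole embryos was measured on 4 two-colour Agilent arrays. The deposited intensity values are scanner output of Agilent Feature Extraction, version 10.5.1.1 per the file headers and 8.5.1.1 per the submitters' processing notes, and were not normalized between arrays. Feature flags (a score for well above background) were also read from the deposited files as the authors' software set them. A deposited table of log2 ratios by the authors, with scale, centring and sign unstated, has a median of 0 in each column. It was set against the scanner values. Its column for 3 dpf array 1 correlated at -0.00466 with that array and was left out. The columns for array 2 at 3 dpf (0.977) and at 6 dpf (0.669) served as an alternative for genotype. Each of them stood for both arrays of its stage. The 3 dpf column followed a single dye orientation. With the 6 dpf column, 1 of 42 members turned sign at 6 dpf, against 15 with 6 dpf array 2 alone. That column resembled the mean of both 6 dpf arrays, so it may already hold a dye swap. The column for 6 dpf array 1 (0.860) was not used. Coordinates and probe sequences were not used here.

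With limma 3.58.1 in R 4.3.3, median signals were background-corrected by normexp (offset 50) and normalized by loess within arrays, with controls at weight 0. Ratios were turned to mutant over wild type and averaged over the dye swap. Pool signals were made comparable by Aquantile normalization, and both dyes averaged. The brightest probe stood for a gene, and 18877 of 26622 genes passed the filter, which asked 1 pool or more to be well above background with both dyes. Levels of different genes were not compared. Values of 2 members are not reported here, and counts and medians include them. Files were read with pandas 2.3.3 and numpy 2.4.6 and figures drawn with matplotlib 3.10.9 (Python 3.11.15).

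Limma tested genotype on the 2 mean ratios (1 per stage), and stage on the 4 pools with genotype as a term. Each fit has 1 residual degree of freedom and takes most of its spread from all genes together. In both tests the residual is the difference between stages in the genotype ratio, so a gene has the same SE in each. Both pools of a stage share its arrays. Variation between arrays of different stages, or between repeat pools of a stage, is therefore not measured by the stage p-values. P-values were adjusted by Benjamini-Hochberg over all genes. An exact two-sided permutation test of 2 pools against 2 cannot go below p = 0.333. All arrays lay on 1 slide, no spot was saturated, and the number of arrays limits the precision. Members named in full were those called and, per class, those with the highest and lowest ratio at a stage and the largest stage change. Of further lists, the 2 largest called stage changes in each direction are named. Scripts were tested on simulated data. The members and lists were chosen with earlier results of these data known. Alternatives were the background correction, Agilent's processed signals, the mean of probes, no filter, median centring, other normalization between arrays, stage alone, the deposited table and leaving out each array.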

Additional observations from a re-analysis of the deposited data

Results flagged for a closer look

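In 2 members both arrays of 1 stage had the opposite sign to both arrays of the other. The share of all genes with this pattern was not counted, so the number says nothing particular about the members. The log2 ratio of mutant over wild type of bcl11ba was -0.12 ± 0.05 at 6 dpf and 0.61 ± 0.15 at 3 dpf. That of chata, the acetylcholine-synthesis gene, was -0.016 ± 0.022 at 6 dpf and 0.11 ± 0.08 at 3 dpf. On the single arrays at 6 dpf chata had -0.03 and -0.001, so its sign there is not distinct from 0. With 1 pool per genotype and stage the difference between stages was not tested. The stage changes were 0.07 in the mutant and 0.81 in wild type for bcl11ba, and 0.48 in the mutant and 0.60 in wild type for chata. The other probe of bcl11ba had mean ratios of 0.01 at 6 dpf and 0.46 at 3 dpf, and chata has 1 probe.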

How the results depend on the processing

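Over 13 alternatives for stage, between 5 and 7 members were called, between 5 and 7 when an array was left out, and 30 with the adjusted p alone, a setting chosen after seeing the data. Pvalb7, grin1b, tubb5 and gap43 were called in each of the 13, and stmn2b and gad1b lost their calls as given above. Gria2b was gained with Agilent's processed signals, gad2 without 6 dpf array 1, and stmn2a and neflb without normalization between arrays. For genotype, 0 or 1 member was called over 11 alternatives, and 0 to 1 when an array was left out: slc32a1 without 3 dpf array 2. The second brightest probe, added after seeing the data, gave 1 call, gad1b. The number past the size rule was 0 at each stage in all 10 alternatives for it. Members with the same sign of stage change in both genotypes numbered 37 to 40, and 37 to 39 when an array was left out. Without normalization between arrays the median stage change was reversed for synaptic vesicle members (-0.092) and transmitter-type members (-0.063), where all genes had -0.23. In that setting the medians of the early neuronal (-1.05), glutamate receptor (0.42) and mature neuron classes (-0.69) kept their sign, and 13 of 42 members turned sign. The member median ratio lay between 0.04 and 0.12 at 6 dpf and between 0.04 and 0.11 at 3 dpf. Over all genes, calls numbered 28 to 770 for genotype, against 200, and 1487 to 4264 for stage, against 1946. No paired analysis was possible because replicate numbers mark dye orientations of 1 pair of pools, and a stage has 1 pool per genotype. Dim probes limit gria2a.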
